A study of Mus musculus with 3 samples.

Results

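Expression of 10 genes for cell surface proteins, proposed sensors of tauroursodeoxycholic acid (TUDCA) and other bile acids together with their relatives, was followed in primary mouse hepatocytes. The set was chosen by symbol: the integrin subunits Itga5, Itgb1, Itga1, Itga3, Itga6, Itgav and Itgb5, the epidermal growth factor receptor Egfr, and the receptors S1pr2 and Gpbar1. All 10 symbols were found among the 37620 genes listed, and 8 of the 10 were among the 11300 genes tested. The TUDCA group held 2 libraries of hepatocytes given TUDCA, a taurine conjugate of a bile acid, labelled 100 mM for 24 h; the unit of this dose is uncertain and may be an error in the label. The DMSO group held 1 library of hepatocytes given the solvent DMSO, with no dose or time in the labels, so a difference in culture time cannot be told apart from TUDCA. Cells of both groups were of passage 1 from C57BL/6 mice, obtained by collagenase perfusion of the liver and grown on gelatin with serum and insulin. Age, sex and number of animals are not given. The series text speaks of 2 independent experiments without tying libraries to them, and nothing says whether the TUDCA libraries came from separate mice. The p-values therefore rest on the spread between these 2 TUDCA libraries, pooled over genes, which may be technical.

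Integrins are heterodimers of an alpha and a beta subunit that bind extracellular matrix outside the cell and link to talin, focal adhesion kinase and Src inside it. In rat liver, TUDCA has been described as a ligand of the integrin made of the Itga5 and Itgb1 products, with signalling through Src and the EGF receptor to MAP kinases. S1PR2, a receptor for sphingosine 1-phosphate, is activated by conjugated bile acids in rodent hepatocytes, and GPBAR1 (TGR5) is the membrane bile acid receptor that raises cyclic AMP. These are effects on proteins, whereas the values here are transcript levels.

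Levels are in RPKM, which corrects reads for the length of the gene and the depth of the library. Levels of different genes can be set side by side only as far as the lengths used are right, and these are not given. The exon length in GENCODE M21 was 1.13 times the smallest length that fits the values for Itga5. That factor was 1.92 for Itgb1, 2.4 for Itgb5 and 4.47 for Itgav. Ranks, ratios and shares between genes hold for the deposited RPKM and may differ with other lengths. Library totals behind them were 9757547 and 10575699 reads for TUDCA replicates 1 and 2 and 10774289 reads for DMSO. Values given as a pair for TUDCA are those of replicates 1 and 2 in that order, and all DMSO values come from 1 library without a replicate. The hepatocyte marker Alb, which encodes serum albumin, stood at 7177 and 6111 RPKM with TUDCA and 5771 RPKM in DMSO. Cyp7a1, the rate-limiting enzyme of classical bile acid synthesis, was listed at 0 in all 3 libraries. The summed level of 8 markers of Kupffer cells, the liver's resident macrophages, was 246 and 259 RPKM with TUDCA and 270.3 RPKM in DMSO, none of the 8 at 0. Most of that sum was Cd68, at 154 and 169 RPKM with TUDCA and 170 RPKM in DMSO. Of the 8 markers, 4 had positive and 4 negative mean log2 differences from DMSO (median 0.06). For 8 markers of sinusoidal endothelium the sums were 6.09 and 5.05 RPKM with TUDCA and 3.74 RPKM in DMSO. For 9 markers of stellate cells and fibroblasts they were 12.4 and 10.7 RPKM with TUDCA and 14.4 RPKM in DMSO. Of 7 keratinocyte markers, 3 were listed at 0 throughout (Krt14, Krt1 and Trp63) and the sums were 20.3 and 20.4 RPKM with TUDCA and 39.2 RPKM in DMSO. Krt5, a keratin of basal epithelial cells, had 15.5 and 14.5 RPKM with TUDCA and 29.5 RPKM in DMSO. Krt5 and Lor, which encodes loricrin, were called lower (limma adjusted p = 0.0128 and 0.045), of 3 tested in that list, and the call of Lor was lost after rescaling to TPM (adjusted p = 0.0716). Whether keratinocytes were present, or had a part in the values of epithelial integrins, was not tested. In such bulk libraries, fewer cells of a type and less RNA per cell cannot be told apart.

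No transcript of the 8 tested genes changed with TUDCA by the test used. The test was limma on log2(RPKM + 1) over all 11300 genes that averaged 1 RPKM or more, and a gene is named as called where its Benjamini-Hochberg adjusted p was below 0.05. It called 0 of the 8, with adjusted p of 0.783 to 0.990, and 0 of the 8 had an unadjusted p below 0.05. In all, 2.65% of the genes tested were called, 1.77% higher and 0.876% lower with TUDCA. With voom on the reads recovered from the RPKM values, 0 of the 8 were called as well. Every gene named below or above as called lost its call without the filter, where 0 genes of the whole table were called. Each of them also lost its call at a filter of 0.3 RPKM, chosen after seeing the data, where 26 genes of the whole table were called. None of the 8 differed from DMSO by at least 1 on the log2 scale, a 2-fold change of RPKM + 1, in both TUDCA libraries and in the same direction, against 0.77% of all genes tested higher and 0.283% lower by that rule. The limma 95% intervals of the 8 mean differences lay between -0.80 and 0.58, so a 2-fold change lay outside each of them. These intervals take the spread that limma pooled over genes from the pair of TUDCA libraries and assume that the lone DMSO library varies alike.

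**Figure D1:**
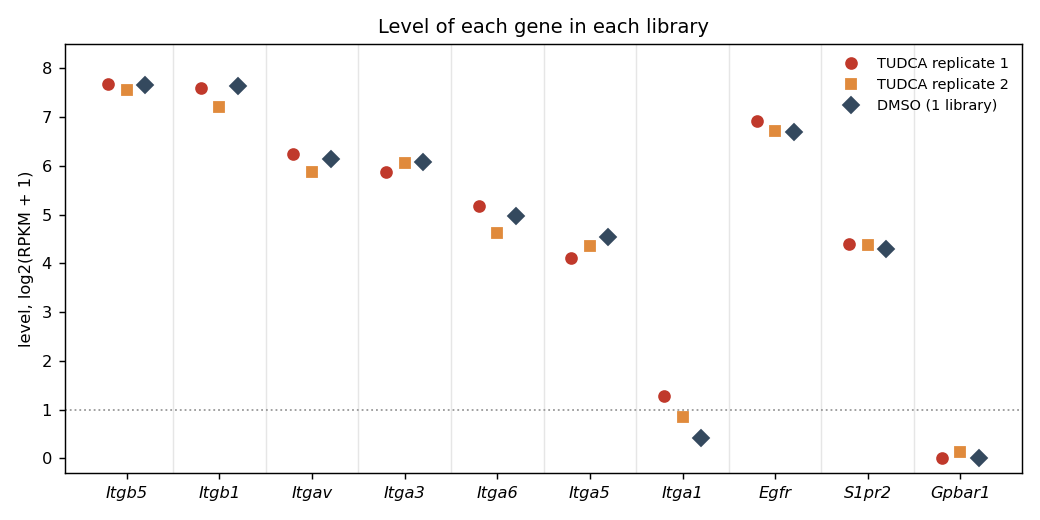
Level of each of the 10 genes as log2(RPKM + 1), with TUDCA replicate 1 as circles, TUDCA replicate 2 as squares and the DMSO library as diamonds; the dotted line marks 1 RPKM. Itgb5 and Itgb1 lie highest, Itga1 lies around or under the dotted line and Gpbar1 lies at or next to 0. Symbols of 1 gene lie close together compared with the full range over the genes. The ranges of Itgb5 and Itgb1, of Itgav and Itga3, and of Itga5 and S1pr2 overlap.

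The order of levels was nearly the same in each library. Itgb5 was highest, followed by Itgb1, Egfr, the pair Itgav and Itga3, Itga6, the pair S1pr2 and Itga5, then Itga1 and Gpbar1. The order of Itgav and Itga3 was turned round in TUDCA replicate 2, and that of S1pr2 and Itga5 differed between TUDCA and DMSO, so neither pair can be ranked beyond its spread. Itgb5 and Itgb1 overlapped over the libraries too. In DMSO, 3.15% of the 19146 genes with any read had a higher RPKM than Itgb5, 6.64% had one higher than Egfr and 25.9% had one higher than S1pr2.

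The fibronectin receptor is made of the Itga5 and Itgb1 products. Itga5 (ENSMUSG00000000555), the alpha subunit that recognises the RGD motif of fibronectin, had 16.2 and 19.6 RPKM with TUDCA and 22.3 RPKM in DMSO. Both TUDCA libraries, which averaged 17.9 ± 2.35 RPKM (SD, n = 2), lay below DMSO, as they did for 30.4% of all genes tested. The mean difference on the log2(RPKM + 1) scale was -0.31 ± 0.25 (SE, limma adjusted p = 0.783), with a 95% interval of -0.80 to 0.19. This was the largest mean difference among the 8 genes in either direction.

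Itgb1 (ENSMUSG00000025809), the beta subunit shared by most matrix-binding integrins of adherent cells, had 192 and 148 RPKM with TUDCA and 197 RPKM in DMSO. TUDCA replicate 1 was close to DMSO and TUDCA replicate 2 below both, with a TUDCA mean of 169.9 ± 31.6 RPKM (SD, n = 2). The mean difference was -0.23 ± 0.20 on the log2 scale (SE, limma adjusted p = 0.812), while the TUDCA libraries differed from each other by 0.38. Itga5 stood at 0.0845 and 0.133 times the RPKM of Itgb1 with TUDCA and at 0.113 times in DMSO, with DMSO between the TUDCA libraries. Nothing in these transcript levels separates receptors on the surface from those inside the cell.

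The remaining alpha subunits of collagen and laminin receptors were Itga3, Itga6 and Itga1. Itga3, which pairs with Itgb1 in a laminin receptor, had 57.3 and 65.5 RPKM with TUDCA and 66.1 RPKM in DMSO. Replicate 2 of TUDCA was almost level with DMSO (log2 difference -0.01) and replicate 1 was lower (-0.20), with a TUDCA mean of 61.4 ± 5.81 RPKM (SD, n = 2). The limma mean difference of Itga3 was -0.11 ± 0.22 (SE, adjusted p = 0.951), with an interval of -0.54 to 0.32. Itga6, the laminin receptor subunit that pairs with Itgb1 or Itgb4, had 35.0 and 23.6 RPKM with TUDCA and 30.3 RPKM in DMSO, so that DMSO lay between the TUDCA libraries, whose mean was 29.3 ± 8.06 RPKM (SD, n = 2). The limma mean difference of Itga6 was -0.07 ± 0.24 (SE, adjusted p = 0.979), with an interval of -0.54 to 0.40. Its partner Itgb4, the subunit of epithelial hemidesmosomes, stood at only 0.0754 and 0.0928 RPKM with TUDCA and 0.0456 RPKM in DMSO.

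Itga1 (ENSMUSG00000042284), a collagen-binding alpha subunit, had 1.43 and 0.791 RPKM with TUDCA and 0.338 RPKM in DMSO, a mean 3.28 times the DMSO value. Its mean over the libraries was under the filter of 1 RPKM, so it was not among the genes tested. The smallest whole reads behind these values were 65 and 39 with TUDCA and 17 in DMSO. Exact 95% Poisson intervals on those reads gave 1.10 to 1.82 and 0.562 to 1.08 RPKM with TUDCA and 0.197 to 0.542 RPKM in DMSO. The TUDCA intervals did not overlap that of DMSO, but they cover counting error only and not the variation between cultures. On the log2(RPKM + 1) scale, which understates changes of low genes, the differences from DMSO were 0.86 and 0.42. With a filter lowered to 0.3 RPKM after Itga1 was seen to lie under the filter, the difference of 0.64 was not called (limma adjusted p = 0.570, unadjusted p = 0.0474), nor was it without a filter (adjusted p = 0.637). In GENCODE M21 the exons of Itga1 share 685 bases with Gm49395 on the same strand, so the assignment of reads there is uncertain.

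Among the markers of cells other than hepatocytes that carry Itga1, Pecam1 of endothelium had 1.64 and 1.13 RPKM with TUDCA and 0.778 RPKM in DMSO, and the endothelial sum was higher in both TUDCA libraries too. All 3 tested members of that endothelial list had positive differences and none was called, with Clec4g and Lyve1 at 2 reads or fewer in every library. Of its untested members, Cdh5 was higher in both TUDCA libraries. For Kdr (0.366 and 0.274 RPKM with TUDCA, 0.310 RPKM in DMSO) and Tek (0.358 and 0.110 RPKM with TUDCA, 0.243 RPKM in DMSO), DMSO lay in between. The stellate cell marker Lrat had 1 and 0 reads with TUDCA and 2 in DMSO. All 5 tested markers of stellate cells and fibroblasts had negative differences (median log2 difference -0.20), and none was called. The part of these cells in the values of Itga1 was not tested.

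The alpha V integrin is represented by Itgav and Itgb5, whose products form a receptor for vitronectin. Itgav had 75.3 and 57.4 RPKM with TUDCA and 69.7 RPKM in DMSO. Itgb5 had 205 and 187 RPKM with TUDCA and 201 RPKM in DMSO. DMSO lay between the TUDCA libraries for both genes, and the limma mean differences were -0.08 ± 0.22 for Itgav and -0.04 ± 0.20 for Itgb5 (SE, adjusted p = 0.967 and 0.990). Their intervals were -0.51 to 0.35 and -0.44 to 0.36, and their TUDCA means 66.3 ± 12.7 and 196 ± 12.5 RPKM (SD, n = 2). The exons of Itgav overlap the opposite-strand transcript Gm13684 by 634 bases, and whether reads were counted by strand is unknown here. Of the beta partners of alpha V other than Itgb5 and Itgb1, Itgb3 had 0.363 and 0.577 RPKM with TUDCA and 0.402 RPKM in DMSO, Itgb6 had 1.79 and 2.47 RPKM with TUDCA and 2.81 RPKM in DMSO, and Itgb8 was listed at 0 throughout.

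Summed over the 18 alpha subunits of the mouse, integrin transcripts came to 203 and 183 RPKM with TUDCA and 208 RPKM in DMSO. Itgav took 37.1 and 31.3% of this sum with TUDCA and 33.5% in DMSO, and Itga3 took 28.2 and 35.7% with TUDCA and 31.8% in DMSO. Itga6 took 17.3 and 12.9% with TUDCA and 14.6% in DMSO, and Itga5 took 8.01 and 10.7% with TUDCA and 10.7% in DMSO. For Itgav, Itga3 and Itga6 the DMSO share lay between those of the TUDCA libraries. Among the 8 beta subunits, Itgb5 and Itgb1 together made up 96.3 and 95.5% of the summed RPKM with TUDCA and 96.1% in DMSO. The same few subunits made up most of the summed RPKM in each of the 3 libraries.

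**Figure D2:**
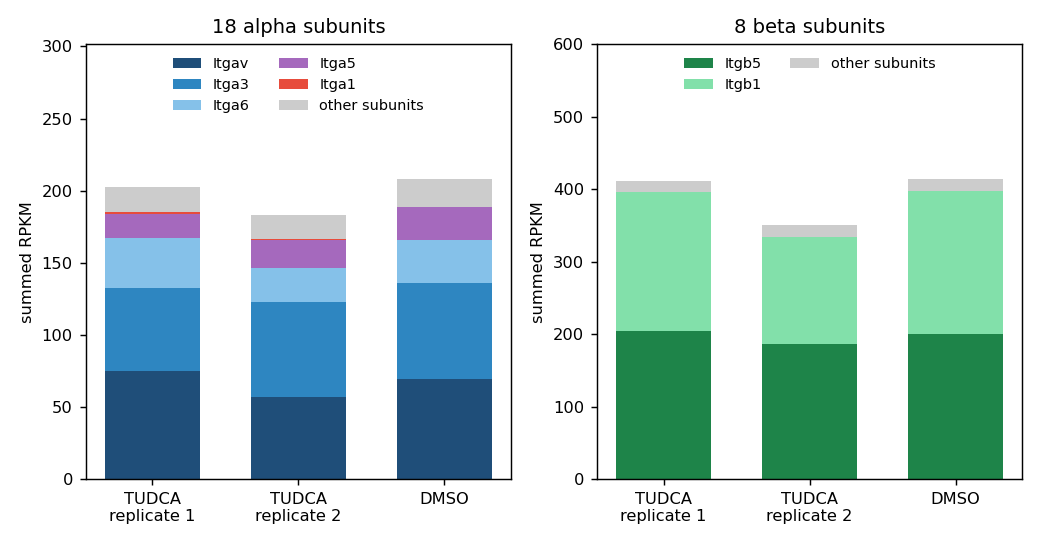
Summed RPKM of the 18 alpha subunits (left) and 8 beta subunits (right) in TUDCA replicate 1, TUDCA replicate 2 and DMSO, split by subunit, with all subunits outside the 7 described here in grey. TUDCA replicate 2 has the lowest sums, 183 and 350.4 RPKM, and Itgav and Itga3 fill most of each alpha column.

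The mean difference was negative for all 6 tested subunits of this set, against 44.1% of all genes tested, but for 4 of the 8 other integrin subunits tested. The 6 values share the same 3 libraries and are not independent. Library medians stood 0.104 and 0.045 higher in the TUDCA libraries than in DMSO on the log2 scale. Centring on them lowers every mean difference by the same amount. The 6 could therefore only stay negative, and centring does not check their sign. With quantile normalization Itgb5 stood at 0.03. In 6 of the 8 tested genes the mean difference from DMSO was smaller than the difference between the TUDCA libraries, against 50.5% of all genes tested. The median absolute mean difference was 0.10 for the 8 genes and 0.19 for all genes tested. DMSO lay within the range of the TUDCA libraries for 3 of the 8 genes, against 29.1% of all genes tested.

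**Figure D3:**
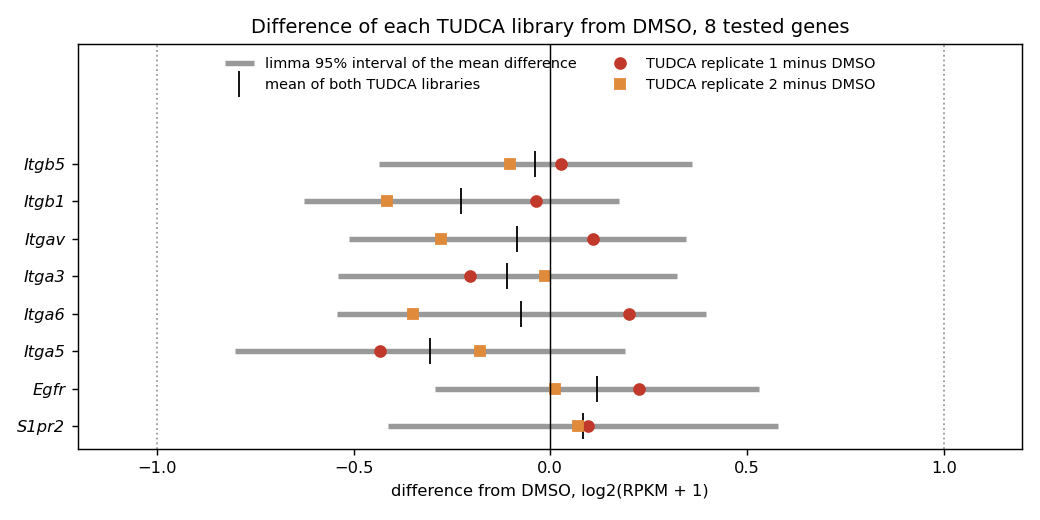
Difference from DMSO on the log2(RPKM + 1) scale for the 8 tested genes, with TUDCA replicate 1 as circles, replicate 2 as squares, their mean as a black tick and the limma 95% interval as a grey bar; dotted lines mark a 2-fold change. All bars cross 0 and end inside the dotted lines, the lowest bound being -0.80 for Itga5 and the highest 0.58 for S1pr2.

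Egfr (ENSMUSG00000020122), the receptor tyrosine kinase for EGF and TGF-alpha that is abundant in hepatocytes, had 120.2 and 104 RPKM with TUDCA and 103 RPKM in DMSO. Replicate 2 of TUDCA was almost level with DMSO, and the TUDCA mean was 112 ± 11.8 RPKM (SD, n = 2). Both TUDCA libraries lay above DMSO, as they did for 40.5% of all genes tested. The mean difference was 0.12 ± 0.21 on the log2 scale (SE, limma adjusted p = 0.940), with an interval of -0.29 to 0.53, and 0.04 after median centring. Its relative Erbb3, a partner without strong kinase activity of its own, had 21.7 and 19.5 RPKM with TUDCA and 12.4 RPKM in DMSO but was not called (limma log2 difference 0.69 ± 0.26, adjusted p = 0.155). Erbb4 was listed at 0 in all libraries, and Erbb2, the family member without a known ligand, had 2.69 and 3.23 RPKM with TUDCA and 2.18 RPKM in DMSO.

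Of 14 genes for EGF receptor ligands, relatives and the proteins that shed the ligands, 10 were tested and 0 were called by limma. Their median log2 difference was 0.30, beside 0.04 over all genes tested, with 7 positive and 3 negative differences. The median was 0.19 without TUDCA replicate 1 and with quantile normalization, and 0.23 with median centring. It was 0.36 with a pseudocount of 0.1 and with voom. Hbegf, which encodes heparin-binding EGF, had 7.34 and 7.05 RPKM with TUDCA and 4.69 RPKM in DMSO (adjusted p = 0.538 by limma). Tgfa had 17.5 and 19.8 RPKM with TUDCA and 14.3 RPKM in DMSO, and Btc, which encodes betacellulin, had 4.66 and 3.25 RPKM with TUDCA and 5.84 RPKM in DMSO. Ereg, Epgn and Egf, which encode epiregulin, epigen and EGF, were under 0.5 RPKM in every library.

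Of 23 genes of EGF receptor signalling and feedback, 21 were tested, 1 was called higher, 1 lower and 19 were not called. Their median log2 difference of 0.02 had no stable sign, at -0.09 without TUDCA replicate 1, 0.11 without replicate 2 and -0.06 with median centring. Errfi1 (MIG6), an inhibitor that binds the EGF receptor kinase domain and is itself induced by growth factors and other stimuli, rose to 341 and 272 RPKM with TUDCA, against 146 RPKM in DMSO. The TUDCA libraries were both well above DMSO (limma log2 difference 1.06 ± 0.20, adjusted p = 2.03e-05). Dusp4, a nuclear phosphatase of MAP kinases, fell to 11.3 and 13.2 RPKM with TUDCA, against 23.0 RPKM in DMSO (limma log2 difference -0.86 ± 0.26, adjusted p = 0.0424). This call was lost after rescaling to TPM, with quantile normalization and without the variance trend (adjusted p = 0.0519, 0.0536 and 0.0726). Its relative Dusp5 had 12.9 and 13.7 RPKM with TUDCA and 20.5 RPKM in DMSO and was not called (limma adjusted p = 0.316), and neither was the feedback inhibitor Spry1, at 2.50 and 2.19 RPKM with TUDCA and 1.41 RPKM in DMSO (adjusted p = 0.670).

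Of 25 integrin ligands and matrix genes, 15 were tested, 1 was called higher and 14 were not called, with a median log2 difference of -0.05, and -0.12 with median centring and -0.08 without TUDCA replicate 1. Spp1 (osteopontin), a secreted RGD protein bound by alpha V integrins, rose to 768 and 578 RPKM with TUDCA, against 387 RPKM in DMSO (limma log2 difference 0.78 ± 0.20, adjusted p = 0.00464). Its call was lost with median centring and without the variance trend (adjusted p = 0.136 and 0.134). Spp1 is also a marker of bile duct cells. Of that list's other markers, Krt19 had 9.50 and 17.0 RPKM with TUDCA and 10.7 RPKM in DMSO, Sox9 had 26.1 and 31.7 RPKM with TUDCA and 20.4 RPKM in DMSO, and Cftr was listed at 0. The summed level of the 7 bile duct markers, most of it Spp1, was 821 and 648 RPKM with TUDCA and 437 RPKM in DMSO, and its part in the rise was not tested. The matrix collagen Col3a1 had 1.00 and 0.679 RPKM with TUDCA and 1.52 RPKM in DMSO (limma adjusted p = 0.703).

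Of 25 adhesion proteins that act behind integrins, 21 were tested and 0 were called by limma. The median log2 difference was -0.06, and it was -0.03 without TUDCA replicate 2, -0.13 with median centring and 0.0048 with quantile normalization. Among the tested genes, the largest differences were those of Tns3, a tensin that binds beta subunit tails, with 63.4 and 58.9 RPKM with TUDCA and 80.6 RPKM in DMSO, and of Vcl, which encodes vinculin, with 46.4 and 36.9 RPKM with TUDCA and 32.4 RPKM in DMSO (limma adjusted p = 0.546 and 0.676). Parva, which encodes the ILK partner alpha-parvin, had 60.1 and 65.5 RPKM with TUDCA and 51.6 RPKM in DMSO. Of the 19 integrin subunits outside the 7 described above, 8 were tested and 0 were called by limma. Their median log2 difference was 0.03, and it was -0.05 without TUDCA replicate 1 and with median centring, and -0.09 with quantile normalization. At a filter of 5 RPKM only 2 of these subunits were tested, with a median of -0.30. Itga7, a laminin receptor subunit best known from muscle, had 5.25 and 5.72 RPKM with TUDCA and 8.64 RPKM in DMSO (limma adjusted p = 0.458, unadjusted p = 0.0479). Itgb6 and Itgam, the alpha subunit of a leukocyte integrin, had log2 differences of -0.29 and 0.26.

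Of the membrane bile acid receptors, S1pr2 was clearly detected, whereas Gpbar1 was at or next to 0. S1pr2 (ENSMUSG00000043895) had 20.1 and 19.7 RPKM with TUDCA and 18.7 RPKM in DMSO, the closest agreement between the TUDCA libraries among the 8 tested genes (log2 difference between them -0.03). Its TUDCA mean was 19.9 ± 0.268 RPKM (SD, n = 2), and the mean difference from DMSO was 0.08 ± 0.25 (SE, limma adjusted p = 0.976), with an interval of -0.41 to 0.58. Gpbar1 (ENSMUSG00000064272) had no read in TUDCA replicate 1, 0.0880 RPKM in TUDCA replicate 2 and no read in DMSO. The value in TUDCA replicate 2 equals 1 read over 1075 bases, which is the exon length of the gene in GENCODE M21. A count of 0 allows up to 3 reads as a one-sided 95% limit, not the two-sided one used for Itga1. That is 0.286 RPKM in TUDCA replicate 1 and 0.259 RPKM in DMSO. For TUDCA replicate 2 the upper bound of the two-sided interval was 0.490 RPKM. A fall of Gpbar1, or a change within these limits, was therefore not detectable at this depth. The limits cover counting error only.

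The promoters of these receptors are shown side by side because their transcript levels lay so far apart, as RefSeq gives them on build GRCm38.p6. Each stretch has 200 bases, from 250 to 51 bases before the annotated start, printed 5′ to 3′ on the strand of the gene with CG dinucleotides in capitals. That of S1pr2 lies at chr9:20976844-20977043 on the minus strand and that of Gpbar1 at chr1:74278350-74278549 on the plus strand.
S1pr2: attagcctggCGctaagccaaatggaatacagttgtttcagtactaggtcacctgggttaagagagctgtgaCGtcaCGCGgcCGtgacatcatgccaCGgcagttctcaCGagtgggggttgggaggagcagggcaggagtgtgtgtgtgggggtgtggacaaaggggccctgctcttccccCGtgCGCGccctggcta
Gpbar1: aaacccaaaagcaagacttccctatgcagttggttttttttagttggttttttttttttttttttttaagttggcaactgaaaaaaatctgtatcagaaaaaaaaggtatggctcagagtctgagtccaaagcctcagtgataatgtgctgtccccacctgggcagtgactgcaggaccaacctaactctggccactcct
The S1pr2 stretch holds 10 CG dinucleotides and that of Gpbar1 holds 0, while 89.1% of 32851 RefSeq promoter stretches of this length hold at least 1. The median count was 11 for genes that averaged 1 RPKM or more here, 5 for genes above 0 and under 1 RPKM, and 2 for genes listed at 0 in all 3 libraries. Within the set, the counts were 14 for Itgb1, 13 for Itgav, 10 for Itgb5 and 9 for Egfr. Itga5 and the far lower Itga1 both held 8, and the entries of Itga3 held 17 and 4. The S1pr2 stretch also holds the palindromic cyclic AMP response element TGACGTCA 1 time, which 0.828% of all stretches do. A search on both strands found it in none of the other 8 genes that have an entry in the table. The AP-1 motif TGANTCA, found in 5.57% of all stretches, was in none of the 9 genes' stretches. Entries matched 9 of the 10 genes, all except Itga6, and the counts describe letters, not binding.

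Among the other S1P receptors, S1pr1 had 3.01 and 2.26 RPKM with TUDCA and 2.00 RPKM in DMSO, so S1pr2 stood at 6.67 and 8.72 times its level with TUDCA and 9.36 times in DMSO. S1pr3, S1pr4 and S1pr5 were under or near 1 RPKM. Of 14 genes of S1P receptors and metabolism other than S1pr2, 10 were tested and 0 were called by limma. Their median log2 difference was 0.11, but 0.02 without a filter, -0.0001 at a filter of 5 RPKM and 0.04 with median centring. The S1P exporter Spns2 had 2.00 and 0.815 RPKM with TUDCA and 0.587 RPKM in DMSO, and the lipid phosphatase Plpp3, which degrades extracellular S1P, had 23.3 and 21.1 RPKM with TUDCA and 16.2 RPKM in DMSO (limma adjusted p = 0.581 and 0.586). S1P lyase, Sgpl1, had 114 and 116 RPKM with TUDCA and 129 RPKM in DMSO.

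Of 19 genes for G proteins and the cyclic AMP pathway used by such receptors, 15 were tested, 1 was called higher and 14 were not called, with a median log2 difference of -0.11, and -0.18 with median centring. Arrb1, which encodes the receptor adaptor beta-arrestin 1, rose to 8.29 and 5.89 RPKM with TUDCA, against 3.03 RPKM in DMSO (limma log2 difference 0.99 ± 0.29, adjusted p = 0.0343), a call lost with quantile normalization (adjusted p = 0.108). The receptor kinase Grk2 had 65.8 and 70.2 RPKM with TUDCA and 89.8 RPKM in DMSO and was not called (limma adjusted p = 0.526). Of the 7 other genes for receptors that bile acids can bind, 3 were tested and 2 were called higher, the nuclear receptors Nr1h4 (FXR), at 17.9 and 12.0 RPKM with TUDCA, against 6.26 RPKM in DMSO, and Nr1i2 (PXR), at 16.3 and 24.6 RPKM with TUDCA, against 5.09 RPKM in DMSO. The muscarinic receptor Chrm3 had 2.94 and 1.60 RPKM with TUDCA and 2.14 RPKM in DMSO, with DMSO in between. Nr1h4 and Nr1i2 had limma log2 differences of 1.11 ± 0.27 and 1.79 ± 0.27, both outside the range of the 8 surface genes, although the difference between these genes and the surface genes was not tested. Of 10 hepatocyte markers, 9 were tested, of which 8 had positive differences and 1 a negative one. Their median log2 difference was 0.34, beside 0.04 over all genes tested. Only Hnf4a, a transcription factor of hepatocyte identity, was called, as higher (limma log2 difference 0.76, adjusted p = 0.0123). This call was lost with median centring and without the variance trend (adjusted p = 0.153 and 0.160). The part of hepatocyte state in the values of Nr1h4 and Nr1i2 was not tested.

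**Figure D4:**
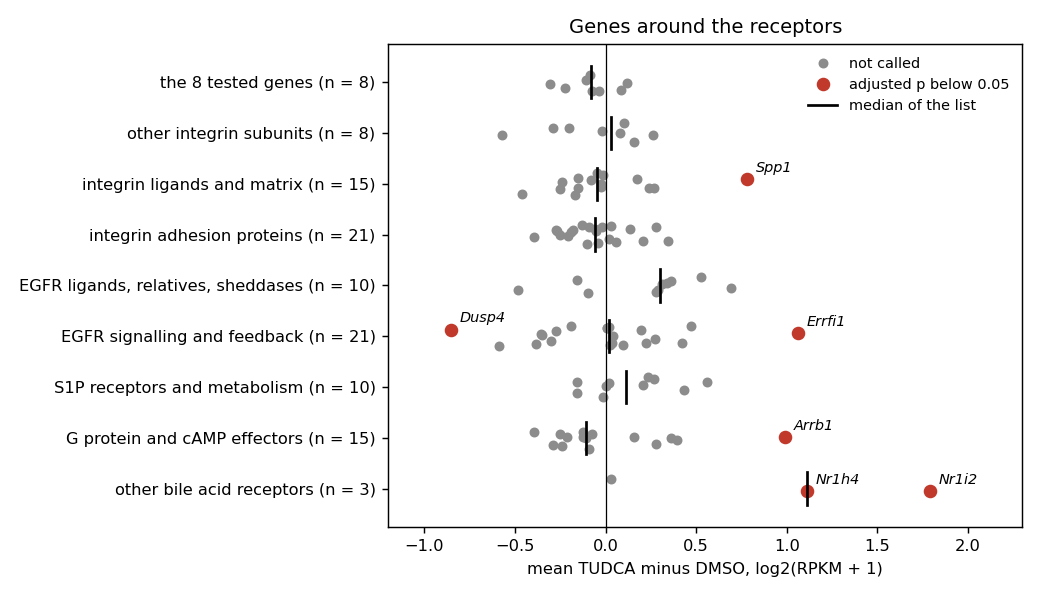
Mean difference of TUDCA from DMSO on the log2(RPKM + 1) scale for the 8 tested genes and for the tested members of 8 lists of genes around them; red points have a limma adjusted p below 0.05 and black ticks are medians. The top row holds no red point and stays between -0.31 and 0.12, and the 6 red points in the lists are Spp1, Errfi1, Dusp4, Arrb1, Nr1h4 and Nr1i2.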

How the data were processed

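mRNA was sequenced from primary mouse hepatocytes, in 2 TUDCA libraries and 1 DMSO library. The authors deposited RPKM values, 1 table per library with 37620 Ensembl gene identifiers, and TopHat2 2.0.7, Bowtie2, HTSeq and CASAVA are the tools listed in the submitters' processing notes. The sources used here do not give their roles, the build, the annotation or the strand setting. Symbols came from GENCODE M21 and matched 32897 identifiers.

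Library totals and the smallest whole reads per gene were recovered from the RPKM values (whole within 1e-09 reads for all 19146 genes above 0). A gene may hold a multiple of those reads, which would narrow its counting interval. Limma 3.58.1, run under R 4.3.3, was applied to log2(RPKM + 1) (trend of the variance on the mean, mean of at least 1 RPKM, Benjamini-Hochberg adjustment over 11300 genes, threshold 0.05). The fit had 1 residual degree of freedom, from the TUDCA pair, and used a pooled spread (SD of 0.159 to 0.265 on the log2 scale). The spread of a gene's own TUDCA pair had almost no weight in its SE and p-value. The log2 difference between the TUDCA libraries was -0.55 for Itga6 and -0.03 for S1pr2, yet their SEs were 0.24 and 0.25. The genes, lists and tests were chosen with earlier results of these data known. From each list the text names every called gene and others with the largest mean differences, plus partners needed for context, some picked after their values were seen. All alternatives are in the closing part.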

Additional observations from a re-analysis of the deposited data

How the results depend on the processing

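None of the 8 tested genes was called under any of the 10 alternative fits (a pseudocount of 0.1, no filter, filters at 5 and 0.3 RPKM, TPM, quantile normalization, median centring, no variance trend, robust estimation and voom), and their adjusted p ranged from 0.686 to 0.998. The count of called genes in the whole table was 299, and it was 0 without the filter (1696 with an unadjusted p below 0.05) and 26 at a filter of 0.3 RPKM, which was chosen after seeing the data; the calls of Spp1, Errfi1, Dusp4, Arrb1, Nr1h4, Nr1i2, Hnf4a, Krt5 and Lor were lost at both filters, the last 3 tried after seeing the data. The other alternatives gave 232 to 327 called genes. The mean difference of Itgb5 turned to 0.026 with quantile normalization. With 1 TUDCA library left out, which leaves 1 library against 1 and no test, the log2 difference ranged from -0.35 to 0.20 for Itga6, from -0.28 to 0.11 for Itgav and from -0.10 to 0.0263 for Itgb5, while the other 6 genes with a difference kept their direction. With a pseudocount of 0.1 the difference of Itga1 was 1.41, in place of 0.64, and 1.80 and 1.02 in the TUDCA libraries. DMSO has 1 library and could not be left out. No paired analysis was possible because DMSO has 1 library and the groups share fewer than 2 replicate numbers. Depth limits Itga1 and Gpbar1 among the 10 genes, while the other 8 had at least 552 reads in every library.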
